A study of Danio rerio with 20 samples.

Results

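The genes described here are the ligands, secreted inhibitors, matrix and processing proteins, receptors and Smads of the BMP, activin and TGF-beta pathways in the regenerating caudal fin of adult zebrafish. They are the genes whose symbol, in the study's lists of differentially expressed genes or of genes near differential ATAC-seq regions, begins with bmp, gdf, inhb, tgfb, chrd, nog, grem, fst or smad followed by a letter or digit. The rule gave 32 genes of the 32105 counted, and all 32 passed the filter on low counts in both experiments. They comprise 11 ligands, 6 inhibitors, 3 matrix and processing proteins, 5 receptors and 7 Smads. Of the 32, 21 stood in the lists of genes that the study had selected on the change from 0 to 4 days post amputation (dpa) in these same sorted-cell libraries, so their change over time in sorted cells, and its difference between the populations, is given as a description, with no test. The other 11 came from the ATAC-seq lists alone. The copies of both lists used here were shortened, so genes named in the missing rows could not enter. A gene among the 11 was thus either left out of the RNA lists on that same change, or its row there was missing.

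RNA-seq was made from 2 experiments with 2 libraries in every group. In the first, fins of the line Tg(sp7:EGFP), in which the promoter of the osteoblast gene sp7 drives EGFP, were dissociated and sorted into sp7+ and sp7- cells, either from uninjured fins (0 dpa) or from the blastema at 4 dpa, with many fins pooled for each library. In the second, RNA of unsorted fins was taken at 0 dpa, and of the blastema at 1 and 4 dpa, from fish labelled fosl1a WT (called wildtype here) and from fish labelled fosl1a KO, a CRISPR/Cas9 mutant of the AP-1 gene fosl1a. Levels are CPM, a library's counts scaled to a fixed total, with TMM scaling. They can be compared between libraries of 1 experiment for 1 gene, not between genes, since gene length was not used. In these bulk samples, fewer cells of a type and less RNA per cell cannot be told apart.

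BMPs, GDFs, activins and TGF-betas are secreted dimers that bring together type I and type II receptor kinases. The type I receptor phosphorylates Smads, with smad5 and smad9 serving BMPs and smad2 and smad3b serving activin and TGF-beta, and these enter the nucleus with SMAD4. Noggins, gremlins and follistatins bind ligands outside the cell, and smad6a and smad6b encode inhibitory Smads that BMP signalling itself induces. In the zebrafish fin, activin is known for its need in early regeneration and BMP signalling for the return of osteoblasts to a bone-forming state.

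Depth ran from 28906309 to 50312755 counts in sorted cells and from 10194983 to 31507208 in fins, the lowest being KO 0 dpa replicate 1. The sp7 gene stood at 30 to 113 CPM in sp7+ cells and at 0.145 to 1.38 in sp7- cells. The fosl1a gene stood at 2.71 and 3.96 CPM in wildtype fins at 0 dpa, 119 and 140 at 1 dpa and 2.31 and 3.4 at 4 dpa. In KO fins it stood at 11.1 and 9.2, 34.2 and 46.1, and 2.24 and 2.98, which does not check the labels, because a CRISPR allele can leave its transcript. In sorted cells of uninjured fins fosl1a stood at 1286 to 1464 CPM, and at 4 dpa at 225 to 399. Uninjured fins were dissociated with Liberase after TrypLE and regenerates with a longer TrypLE step alone, so day and dissociation cannot be told apart in sorted cells. The summed level of 7 osteoblast markers was 2002 to 6203 CPM in sp7+ cells at 0 dpa and 33682 to 51880 at 4 dpa, against 53.8 to 69 and 2170 to 3135 in sp7- cells. The sp7+ cells also carried 61886 to 74306 CPM of 7 epidermal markers at 0 dpa and 15635 to 18055 at 4 dpa. In sp7- cells the epidermal sum was 74338 to 77915 CPM at 0 dpa and 26833 to 34164 at 4 dpa. In wildtype fins the osteoblast sum was 2698 to 3000 CPM at 0 dpa, 145 to 196 at 1 dpa and 16561 to 23680 at 4 dpa. The epidermal sum there was 81527 to 102522, 97976 to 102629 and 38478 to 44964 CPM at those times, and that of 5 markers of blastema mesenchyme was 1139 to 1164, 2799 to 3168 and 3217 to 3970. Those 5 are msx1b, msx3, tnc, col12a1a and aldh1a2. While their sum was higher at 1 than at 0 dpa, msx1b was lower (33.9 and 38.2 CPM at 0 dpa, 20.7 and 18.4 at 1 dpa). So was msx3 (36.8 and 33.5 at 0 dpa, 10.7 and 10.6 at 1 dpa). Both msx genes also stand among the pathway target genes below. In sorted cells the mesenchyme sum was 479 to 1037 CPM in sp7+ and 797 to 848 in sp7- cells at 0 dpa, and 4244 to 5503 and 3695 to 3757 at 4 dpa. No marker of these 3 lists was at 0 in any group. The part of these cell types in the changes below was not tested.

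The first question was how the pathway moved as the fin regenerated. It was asked in wildtype fins, whose libraries did not enter the study's lists that gave the members. The members were still chosen on changes during regeneration, in the RNA or ATAC-seq signal of sorted cells, and with earlier results of these data known. Their shares below are thus not those of an unselected list. At 1 dpa most of the members that passed the test had fallen. The ligand genes gdf5, gdf10a and inhbb, the inhibitors nog1, bmper and nog3, and the inhibitory Smads smad6a and smad6b fell. So did tgfbi and the TGF-beta receptor gene tgfbr2. The activin subunit gene inhbab and the other TGF-beta receptor gene, TGFBR2, rose, so activin subunits and these receptors went both ways. Against 0 dpa, 2 members rose and 10 fell, with 15.3% of all genes tested called at an adjusted p of 0.05 against a 2-fold change (6.32% higher and 8.95% lower). The median log2 fold change was -0.92 over the members and -0.06 over all genes tested. At 4 dpa against 0 dpa 4 rose and 3 fell, with 11.5% of all genes called (6.69% higher and 4.78% lower). Between 1 and 4 dpa 12 rose and 1 fell, with 8.97% of all genes called (5.84% higher and 3.13% lower) and medians of 0.43 and 0.03. From 0 to 1 dpa 47.6% of the 21 members chosen on sorted-cell RNA were called and 18.2% of the other 11. The shares were 28.6% and 9.09% from 0 to 4 dpa, and 57.1% and 9.09% from 1 to 4 dpa. Without wildtype 1 dpa replicate 1, 8 members were called between 1 and 4 dpa. Both contrasts with 0 dpa use the same wildtype 0 dpa libraries, and both contrasts with 1 dpa the same 1 dpa libraries, so a gene low in the shared libraries moves in both.

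**Figure D1:**
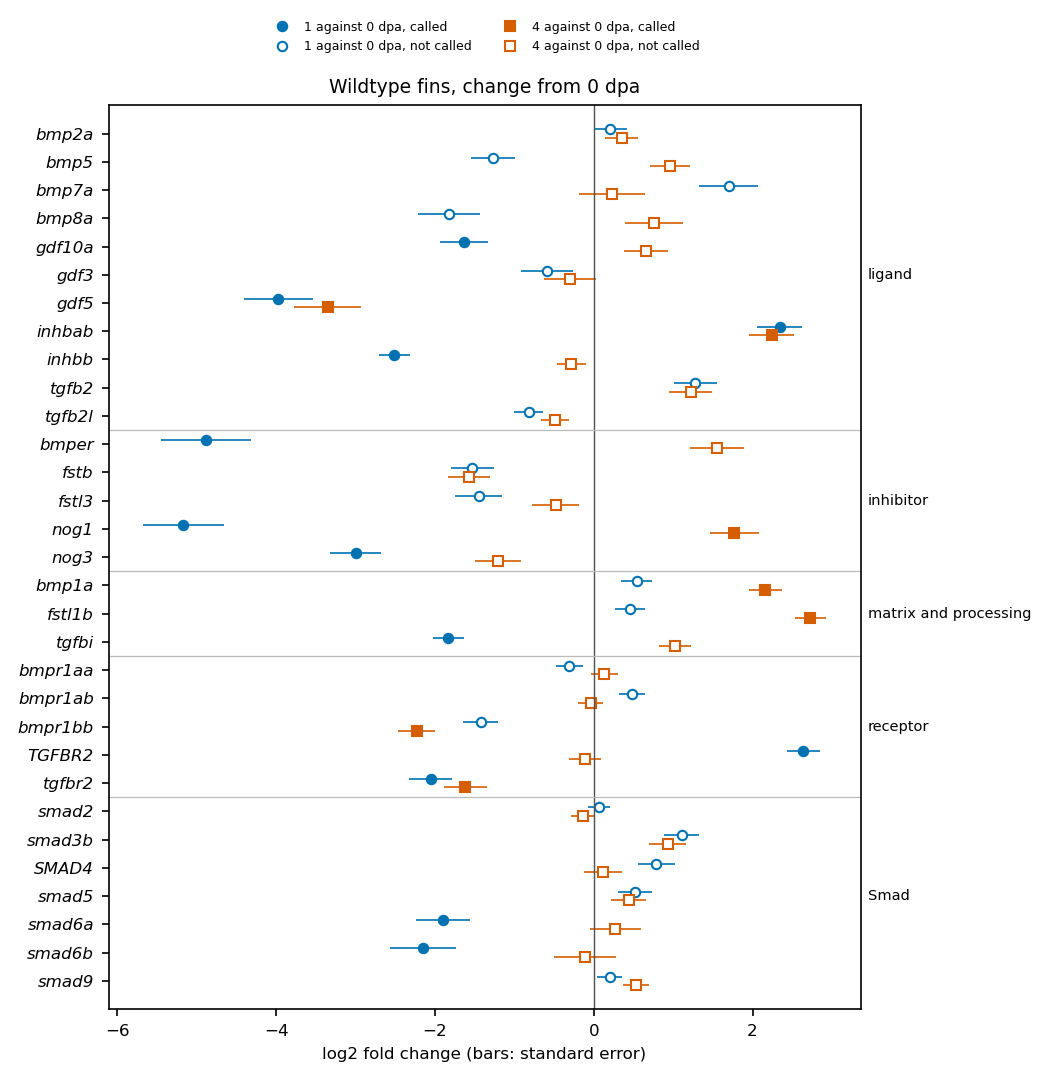
Log2 fold change of 31 members in wildtype fins at 1 and 4 dpa against 0 dpa, by role, with standard errors where one could be had (2 libraries a group) and filled symbols for genes that passed the edgeR test against a 2-fold change. At 1 dpa nog1, bmper and gdf5 lie farthest to the left and TGFBR2 and inhbab farthest to the right, and at 4 dpa nog1 lies to the right of 0.

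Among the ligands, inhbab, which encodes an activin beta A subunit, was higher at both times. It stood at 5.18 and 3.71 CPM at 0 dpa, 20.8 and 24.5 at 1 dpa and 25.9 and 16.5 at 4 dpa in wildtype fins. KO fins held 4.18 and 2.46, 8.9 and 9, and 39.7 and 34.2 at those times. The wildtype 1 and 4 dpa libraries all lay above both 0 dpa libraries, and the log2 fold change was 2.34 (SE 0.28, edgeR adjusted p = 0.00104) at 1 dpa and 2.24 (SE 0.28, edgeR adjusted p = 0.00235) at 4 dpa. The gene inhbb, which encodes the beta B subunit, moved the other way at 1 dpa. It stood at 33 and 45.7 CPM at 0 dpa, 6.38 and 7.45 at 1 dpa and 31.9 and 32.8 at 4 dpa in wildtype fins. KO fins held 37.5 and 36.9, 7.3 and 6.8, and 48.1 and 40.7 at those times. Its level at 1 dpa lay below every library of the other days in both genotypes, with a change of -2.51 (SE 0.20, edgeR adjusted p = 5.76e-05) from 0 to 1 dpa and 2.23 (SE 0.19, edgeR adjusted p = 0.000215) from 1 to 4 dpa, and at 4 dpa it was -0.28 (SE 0.18, edgeR adjusted p = 1) against 0 dpa.

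The growth factor gene gdf5, known in mammals for joint formation, was low at both times of regeneration. Its levels were 4.73 and 5.16 CPM at 0 dpa, 0.261 and 0.37 at 1 dpa and 0.351 and 0.585 at 4 dpa in wildtype fins. KO fins held 3.47 and 6.11, 0.43 and 0.366, and 1.22 and 0.572 at those times. Every regenerate library lay below every 0 dpa library, and the fold changes in wildtype were -3.97 (SE 0.44, edgeR adjusted p = 0.000222) at 1 dpa and -3.35 (SE 0.42, edgeR adjusted p = 0.00111) at 4 dpa. The related ligand gdf10a stood at 12 and 8.23 CPM at 0 dpa, 4.01 and 2.47 at 1 dpa and 16.9 and 15.1 at 4 dpa in wildtype fins. KO fins held 13.8 and 10.3, 5.52 and 3.45, and 15 and 11.8 at those times. It fell by 1 dpa, -1.63 (SE 0.30, edgeR adjusted p = 0.0493), and rose from 1 to 4 dpa, 2.29 (SE 0.30, edgeR adjusted p = 0.00302). The first of these calls was lost with DESeq2 or DESeq2 size factors and without wildtype 0 dpa replicate 1 or wildtype 1 dpa replicate 2 (log2 values from -1.63 to -1.33, adjusted p from 0.0516 to 0.435).

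The ligand genes bmp5 and bmp8a were higher at 4 than at 1 dpa. The levels of bmp5 were 3.06 and 3.03 CPM at 0 dpa, 1.17 and 1.36 at 1 dpa and 7.13 and 4.76 at 4 dpa in wildtype fins. KO fins held 3.23 and 4.46, 1.41 and 1.05, and 5.82 and 6.13 at those times. In wildtype, bmp5 changed by 2.23 (SE 0.28, edgeR adjusted p = 0.00218) from 1 to 4 dpa. Those of bmp8a were 8.15 and 10.7 CPM at 0 dpa, 2.48 and 2.84 at 1 dpa and 16.1 and 15.8 at 4 dpa in wildtype fins. KO fins held 4.65 and 14.7, 2.39 and 2.51, and 19.1 and 17.5 at those times. In wildtype, bmp8a changed by 2.59 (SE 0.40, edgeR adjusted p = 0.00541) over the same days. The 1 dpa libraries lay below those of 0 and 4 dpa for both genes in both genotypes, but against 0 dpa neither passed the main edgeR test at 1 dpa, with -1.27 (SE 0.28, edgeR adjusted p = 0.256) for bmp5 and -1.82 (SE 0.39, edgeR adjusted p = 0.0524) for bmp8a. The 1 dpa change of bmp8a against 0 dpa did pass with no filter, a filter of 1 CPM in 2 libraries, a replicate block or a fit of these groups alone (log2 values from -1.85 to -1.79, adjusted p from 0.00536 to 0.047). Its call from 1 to 4 dpa was lost without wildtype 1 dpa replicate 1 (2.43, adjusted p = 0.0711).

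Of the other ligands, none passed the test between days in wildtype fins. The BMP ligand gene bmp7a stood at 0.625 and 1.28 CPM at 0 dpa, 2.7 and 3.37 at 1 dpa and 0.904 and 1.25 at 4 dpa in wildtype fins. KO fins held 0.709 and 1.14, 1.41 and 0.942, and 1.34 and 1.55 at those times. Its 1 dpa libraries were the highest of the wildtype ones, at 1.70 (SE 0.37, edgeR adjusted p = 0.0714) against 0 dpa. The TGF-beta ligand gene tgfb2 stood at 2.65 and 3.2 CPM at 0 dpa, 6.77 and 7.41 at 1 dpa and 6.23 and 7.3 at 4 dpa in wildtype fins. KO fins held 1.73 and 3.19, 3.74 and 2.77, and 9.98 and 7.84 at those times. All 4 wildtype regenerate libraries lay above the 0 dpa ones, with 1.28 (SE 0.27, edgeR adjusted p = 0.227) at 1 dpa and 1.22 (SE 0.27, edgeR adjusted p = 0.343) at 4 dpa. The ligand gene gdf3 stood at 3.09 and 2 CPM at 0 dpa, 2.12 and 1.28 at 1 dpa and 1.86 and 2.3 at 4 dpa in wildtype fins. KO fins held 2.76 and 1.96, 2.45 and 1.99, and 2 and 1.47 at those times, and the gdf3 groups overlapped. The remaining ligand of the TGF-beta type, tgfb2l, ranged from 34.3 to 103 CPM over the fin libraries and passed no test in any of the 13 comparisons.

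Among the secreted inhibitors, nog1, bmper and nog3 had their lowest levels of the time course at 1 dpa. For nog1, which encodes a noggin, the levels were 3 and 5.33 CPM at 0 dpa, 0.0977 and 0.123 at 1 dpa and 16.8 and 11.4 at 4 dpa in wildtype fins. KO fins held 2.92 and 3.87, 0 and 0.105, and 14.9 and 13.8 at those times. At 1 dpa this came to 3 and 3 counts in the wildtype libraries and 0 and 2 in the KO libraries. Over the summed counts, wildtype fins held 36.3-fold more nog1 at 0 than at 1 dpa (95% exact interval 16.4 to 99.9, counting error only) and 126-fold more at 4 than at 1 dpa (57.7 to 345). The edgeR changes were -5.17 (SE 0.51, edgeR adjusted p = 8.23e-05) from 0 to 1 dpa, 6.94 (SE 0.48, edgeR adjusted p = 7.83e-06) from 1 to 4 dpa and 1.77 (SE 0.31, edgeR adjusted p = 0.0339) from 0 to 4 dpa. The last of these was lost with DESeq2 and without wildtype 0 dpa replicate 1 or wildtype 4 dpa replicate 1 (log2 values from 1.37 to 1.77, adjusted p from 0.185 to 0.29).

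The gene bmper, whose product binds BMPs outside the cell, followed the same course with low counts at 1 dpa. It stood at 2.5 and 3.24 CPM at 0 dpa, 0.0326 and 0.165 at 1 dpa and 8.43 and 8.27 at 4 dpa in wildtype fins. KO fins held 1.5 and 3.1, 0 and 0.105, and 13.8 and 11.6 at those times. The 1 dpa values rest on 1 and 4 counts in wildtype and 0 and 2 in KO libraries. Summed counts gave 30.8-fold more at 0 than at 1 dpa (12.9 to 96.3) and 91.8-fold more at 4 than at 1 dpa (39 to 284) in wildtype fins. The fitted changes were -4.88 (SE 0.57, edgeR adjusted p = 0.00027) to 1 dpa and 6.43 (SE 0.53, edgeR adjusted p = 2.83e-05) from 1 to 4 dpa. At 4 dpa against 0 dpa bmper gave 1.55 (SE 0.34, edgeR adjusted p = 0.123).

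A second noggin gene, nog3, stayed below its 0 dpa libraries at 4 dpa in every library, but did not pass the test between those days in wildtype fins. It stood at 16.4 and 30.8 CPM at 0 dpa, 2.48 and 3.46 at 1 dpa and 9.24 and 11.1 at 4 dpa in wildtype fins. KO fins held 17.6 and 21.9, 3.87 and 5.39, and 13 and 11.6 at those times. Its changes were -3.00 (SE 0.32, edgeR adjusted p = 0.000253) from 0 to 1 dpa and 1.79 (SE 0.31, edgeR adjusted p = 0.0387) from 1 to 4 dpa, and the second was lost with DESeq2 and without wildtype 1 dpa replicate 1, wildtype 1 dpa replicate 2, wildtype 4 dpa replicate 1 or wildtype 4 dpa replicate 2 (log2 values from 1.50 to 2.02, adjusted p from 0.0546 to 0.31). The follistatin-related fstl3, whose product binds activin, stood at 28 and 60.4 CPM at 0 dpa, 15.4 and 16.9 at 1 dpa and 27.8 and 35.6 at 4 dpa in wildtype fins. KO fins held 39.7 and 50.4, 16.4 and 16.6, and 24.4 and 19.7 at those times. For fstl3 the wildtype change was -1.45 (SE 0.30, edgeR adjusted p = 0.122) at 1 dpa, and fstl3 passed no test between days in wildtype fins. The follistatin gene fstb ranged from 11.3 to 46.5 CPM over the fin libraries, and its changes were -1.53 (SE 0.27, edgeR adjusted p = 0.0598) at 1 dpa and -1.57 (SE 0.27, edgeR adjusted p = 0.0585) at 4 dpa.

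**Figure D2:**
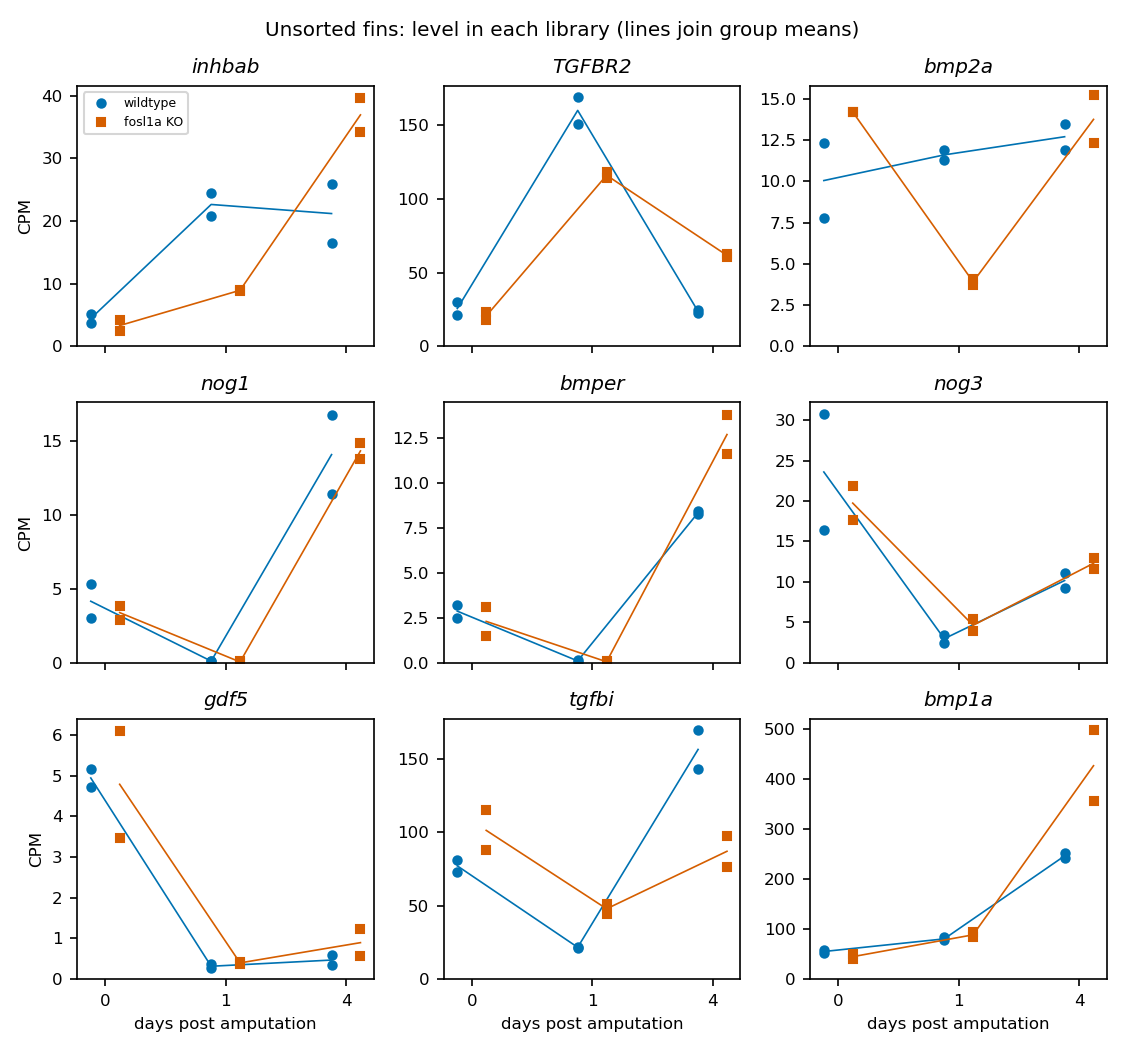
Level in CPM of 9 members in each of the 12 fin libraries against days post amputation (circles wildtype, squares fosl1a KO, 2 libraries at each time, lines through the group means, linear axes from 0). The nog1 and bmper panels touch the axis at 1 dpa, and the TGFBR2 and inhbab panels are high there in wildtype. At 1 dpa bmp2a is at 3.74 and 4.08 CPM in KO fins against 11.3 and 11.9 in wildtype.

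The 3 matrix and processing genes were higher at 4 than at 1 dpa. The gene bmp1a encodes a metalloprotease that matures procollagen and cleaves the BMP inhibitor chordin, and is not itself a ligand. It stood at 57.2 and 52.9 CPM at 0 dpa, 83.1 and 77.5 at 1 dpa and 241 and 251 at 4 dpa in wildtype fins. KO fins held 40.2 and 49.3, 93.6 and 83.2, and 497 and 355 at those times. All 4 of its libraries at 4 dpa lay above all 8 others, with 2.16 (SE 0.21, edgeR adjusted p = 0.000538) from 0 to 4 dpa and 1.62 (SE 0.20, edgeR adjusted p = 0.0155) from 1 to 4 dpa in wildtype. The call from 1 to 4 dpa was lost with DESeq2 and without wildtype 1 dpa replicate 1, wildtype 1 dpa replicate 2 or wildtype 4 dpa replicate 2 (log2 values from 1.54 to 1.62, adjusted p from 0.0617 to 0.12).

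The secreted glycoprotein gene fstl1b stood at 81.7 and 67.2 CPM at 0 dpa, 108 and 95.9 at 1 dpa and 466 and 521 at 4 dpa in wildtype fins. KO fins held 87.4 and 71.1, 104 and 85.7, and 285 and 279 at those times. In wildtype it rose by 2.73 (SE 0.20, edgeR adjusted p = 5.98e-05) from 0 to 4 dpa and by 2.27 (SE 0.20, edgeR adjusted p = 0.00019) from 1 to 4 dpa, with 0.46 (SE 0.19, edgeR adjusted p = 1) at 1 dpa. The gene tgfbi, which encodes a matrix protein induced by TGF-beta in mammals, stood at 72.9 and 81.4 CPM at 0 dpa, 22.1 and 21.2 at 1 dpa and 143 and 170 at 4 dpa in wildtype fins. KO fins held 115 and 87.7, 51.2 and 44.6, and 76.4 and 97.8 at those times. It was lowest at 1 dpa, -1.83 (SE 0.20, edgeR adjusted p = 0.00224), and rose from 1 to 4 dpa, 2.85 (SE 0.21, edgeR adjusted p = 3.46e-05).

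Receptors moved apart from each other. The 2 genes named for the TGF-beta type II receptor in the lists, TGFBR2 (ENSDARG00000059363) and tgfbr2 (ENSDARG00000034541), went opposite ways at 1 dpa. TGFBR2 stood at 21.2 and 30.1 CPM at 0 dpa, 169 and 151 at 1 dpa and 22.7 and 24.7 at 4 dpa in wildtype fins. KO fins held 18.2 and 23, 118 and 114, and 62.5 and 60.9 at those times. In wildtype it rose by 2.64 (SE 0.21, edgeR adjusted p = 4.82e-05) at 1 dpa and changed by -2.75 (SE 0.21, edgeR adjusted p = 4.34e-05) from 1 to 4 dpa, ending at -0.11 (SE 0.20, edgeR adjusted p = 1) against 0 dpa. In contrast, tgfbr2 stood at 73.7 and 124 CPM at 0 dpa, 26.5 and 21 at 1 dpa and 27.8 and 36.4 at 4 dpa in wildtype fins. KO fins held 84.9 and 68.5, 30.4 and 35.6, and 38.7 and 31.2 at those times. Its wildtype changes were -2.05 (SE 0.27, edgeR adjusted p = 0.00299) at 1 dpa and -1.62 (SE 0.27, edgeR adjusted p = 0.0417) at 4 dpa, the second being lost with DESeq2 and without wildtype 0 dpa replicate 2, wildtype 4 dpa replicate 1 or wildtype 4 dpa replicate 2 (log2 values from -1.77 to -1.16, adjusted p from 0.0697 to 0.489). Their reads were mapped uniquely, and how far the 2 sequences are alike was not analysed here.

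The BMP type I receptor gene bmpr1bb stood at 14.7 and 21.4 CPM at 0 dpa, 6.61 and 6.87 at 1 dpa and 3.61 and 4.02 at 4 dpa in wildtype fins. KO fins held 11.7 and 13.9, 7.73 and 10.7, and 5.94 and 6.29 at those times. It fell from 0 to 4 dpa, -2.23 (SE 0.23, edgeR adjusted p = 0.0008), and gave -1.42 (SE 0.22, edgeR adjusted p = 0.0655) at 1 dpa. Another type I receptor gene, bmpr1aa, stood at 29 and 28.9 CPM at 0 dpa, 23.9 and 22.9 at 1 dpa and 31.2 and 32 at 4 dpa in wildtype fins. KO fins held 36.3 and 27, 24.1 and 21.6, and 27.9 and 29.4 at those times. Its change was -0.31 (SE 0.17, edgeR adjusted p = 1) at 1 dpa and 0.13 (SE 0.17, edgeR adjusted p = 1) at 4 dpa. The third, bmpr1ab, ranged from 17.3 to 27.7 CPM in fins and passed no test in any comparison.

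Of the Smads, the inhibitory pair was the one that passed a test between days in wildtype fins. The levels of smad6a were 23.7 and 29.3 CPM at 0 dpa, 5.44 and 8.81 at 1 dpa and 31.4 and 32.7 at 4 dpa in wildtype fins. KO fins held 17.5 and 39.7, 7.67 and 9.21, and 46.6 and 48.7 at those times. In wildtype, smad6a changed by -1.90 (SE 0.34, edgeR adjusted p = 0.021) to 1 dpa and 2.17 (SE 0.34, edgeR adjusted p = 0.00974) from 1 to 4 dpa. Those of smad6b were 32.6 and 51.9 CPM at 0 dpa, 9.8 and 9.18 at 1 dpa and 42.5 and 35.6 at 4 dpa in wildtype fins. KO fins held 14.7 and 46.1, 5.89 and 6.91, and 82.1 and 83.7 at those times. In wildtype, smad6b changed by -2.15 (SE 0.41, edgeR adjusted p = 0.0186) and 2.04 (SE 0.41, edgeR adjusted p = 0.0414) over the same days. For both genes every 1 dpa library lay below every 0 and 4 dpa library. The smad6a calls were lost, to 1 dpa, with DESeq2 and without wildtype 0 dpa replicate 2 or wildtype 1 dpa replicate 1 (log2 values from -1.87 to -1.57, adjusted p from 0.113 to 0.178), and from 1 to 4 dpa without wildtype 1 dpa replicate 1 (1.81, adjusted p = 0.133). Those of smad6b were lost, to 1 dpa, with DESeq2 and without wildtype 0 dpa replicate 2, wildtype 1 dpa replicate 1 or wildtype 1 dpa replicate 2 (log2 values from -2.19 to -1.76, adjusted p from 0.0592 to 0.137), and from 1 to 4 dpa with DESeq2 and without wildtype 1 dpa replicate 1, wildtype 1 dpa replicate 2, wildtype 4 dpa replicate 1 or wildtype 4 dpa replicate 2 (log2 values from 1.93 to 2.19, adjusted p from 0.0811 to 0.224).

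The Smads that carry the signal moved less. The activin and TGF-beta mediator gene smad3b stood at 7.7 and 8.44 CPM at 0 dpa, 14.2 and 20.7 at 1 dpa and 17.4 and 13.3 at 4 dpa in wildtype fins. KO fins held 9.14 and 7.7, 17.7 and 19.5, and 22.5 and 17.6 at those times. The wildtype change of smad3b was 1.11 (SE 0.22, edgeR adjusted p = 0.441) at 1 dpa. The BMP mediator gene smad5 stood at 57.8 and 59.5 CPM at 0 dpa, 79.7 and 88.2 at 1 dpa and 84.3 and 75 at 4 dpa in wildtype fins. KO fins held 38.6 and 62.5, 68.1 and 73.1, and 132 and 115 at those times. For smad5 the wildtype change was 0.52 (SE 0.22, edgeR adjusted p = 1) at 1 dpa. The shared partner SMAD4 (ENSDARG00000012649) stood at 6.96 and 7.59 CPM at 0 dpa, 12.1 and 13.1 at 1 dpa and 8.69 and 7.18 at 4 dpa in wildtype fins. KO fins held 4.65 and 6.65, 8.1 and 11.1, and 17.5 and 12.6 at those times. For SMAD4 the wildtype change was 0.79 (SE 0.23, edgeR adjusted p = 1) at 1 dpa. A second identifier named SMAD4, ENSDARG00000075226, is not a member and lay lower at 1 dpa in wildtype fins. It stood there at 38.9 and 48.3 CPM at 0 dpa, 28.7 and 34.7 at 1 dpa and 33.3 and 22 at 4 dpa. The other mediators, smad2 and smad9, ranged from 24.8 to 32.6 and from 15.7 to 33.5 CPM over the fin libraries. Neither passed the main edgeR test in any comparison, and smad9 passed with the compared groups fitted alone for KO against wildtype at 4 dpa (0.41, adjusted p = 0.0491).

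The second question was which members differed between sp7+ and sp7- cells of 1 day. Both populations carried epidermal markers, as given above, so the sp7+ values are not those of osteoblasts alone. In uninjured fins the BMP ligands bmp8a and bmp5 and the inhibitors bmper and nog3 were among the members higher in sp7+ cells, and gdf3, gdf5, tgfbi, nog1 and TGFBR2 were lower. In all 5 members were higher and 5 lower, with 18.0% of all genes called (9.56% higher and 8.44% lower). At 4 dpa inhbb, bmper, bmp7a and bmp8a were higher and nog1 lower in sp7+ cells, 5 members with 9.02% of all genes called (5.87% higher and 3.14% lower). Membership was partly set by the change of these libraries over time, so the shares and p-values are not those of an unselected list. Members such as inhbb, nog3, tgfbi and gdf5 stood in the RNA lists of only sp7+ or only sp7- cells. The contrasts between populations use the same values again, so their p-values below are part of a description.

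**Figure D3:**
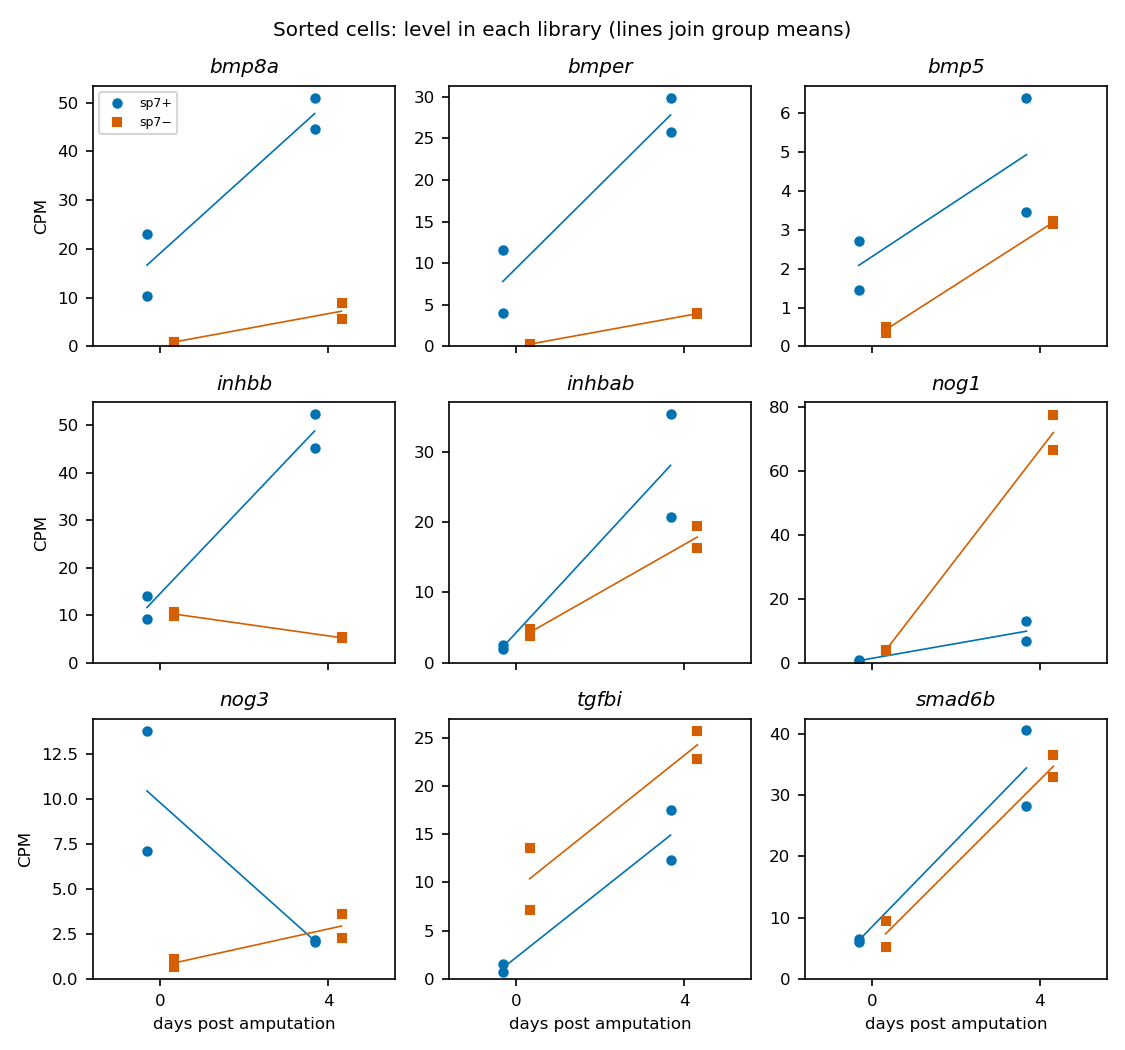
Level in CPM of 9 members in each of the 8 sorted-cell libraries at 0 and 4 dpa (circles sp7+, squares sp7- cells, 2 libraries in each group, lines through the group means, linear axes from 0). For bmp8a and bmper the sp7+ libraries lie above the sp7- ones on both days, for nog1 below them, and for inhbb the groups part at 4 dpa.

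The BMP ligand bmp8a and the inhibitor bmper were higher in sp7+ cells on both days. The levels of bmp8a were 10.3 and 23 CPM in sp7+ cells at 0 dpa and 44.6 and 50.9 at 4 dpa. sp7- cells held 0.818 and 0.942 at 0 dpa and 5.53 and 8.89 at 4 dpa. The sp7+ libraries lay above the sp7- libraries of the same day without overlap, with 4.23 (SE 0.41, edgeR adjusted p = 2.9e-05) at 0 dpa and 2.73 (SE 0.35, edgeR adjusted p = 0.00126) at 4 dpa. Those of bmper were 3.99 and 11.6 CPM in sp7+ cells at 0 dpa and 29.8 and 25.8 at 4 dpa. sp7- cells held 0.189 and 0.338 at 0 dpa and 3.96 and 3.91 at 4 dpa. Its difference was 4.84 (SE 0.51, edgeR adjusted p = 5.37e-05) at 0 dpa and 2.82 (SE 0.39, edgeR adjusted p = 0.00185) at 4 dpa. The noggin gene nog1 was lower in sp7+ cells on both days, at 0.577 and 0.717 CPM in sp7+ cells at 0 dpa and 6.76 and 13 at 4 dpa. sp7- cells held 3.96 and 3.67 at 0 dpa and 77.7 and 66.5 at 4 dpa. That gave -2.55 (SE 0.37, edgeR adjusted p = 0.00197) at 0 dpa and -2.87 (SE 0.29, edgeR adjusted p = 0.000204) at 4 dpa.

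Other members differed on 1 day. The levels of nog3 were 7.1 and 13.8 CPM in sp7+ cells at 0 dpa, 2.08 and 2.17 in sp7+ cells at 4 dpa, 1.13 and 0.652 in sp7- cells at 0 dpa and 2.28 and 3.61 in sp7- cells at 4 dpa, with sp7+ cells higher at 0 dpa, 3.57 (SE 0.41, edgeR adjusted p = 0.000148), and -0.47 (SE 0.36, edgeR adjusted p = 1) at 4 dpa. Those of bmp5 were 1.46 and 2.71 CPM in sp7+ cells at 0 dpa and 3.47 and 6.4 at 4 dpa. sp7- cells held 0.346 and 0.507 at 0 dpa and 3.23 and 3.16 at 4 dpa. The difference, sp7+ against sp7-, was 2.27 (SE 0.45, edgeR adjusted p = 0.0145) at 0 dpa and 0.62 (SE 0.35, edgeR adjusted p = 1) at 4 dpa. The bmp5 call was lost without sp7- 0 dpa replicate 1 or sp7+ 0 dpa replicate 2 (log2 values from 1.74 to 2.04, adjusted p from 0.0772 to 0.109).

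On the lower side at 0 dpa, tgfbi stood at 0.71 and 1.59 CPM in sp7+ cells at 0 dpa and 17.5 and 12.3 at 4 dpa. sp7- cells held 7.17 and 13.6 at 0 dpa and 25.7 and 22.8 at 4 dpa. For tgfbi the 0 dpa difference was -3.16 (SE 0.41, edgeR adjusted p = 0.000492). TGFBR2 stood at 32.4 and 31 CPM in sp7+ cells at 0 dpa and 26.3 and 32 at 4 dpa. sp7- cells held 114 and 73.6 at 0 dpa and 53.3 and 58.7 at 4 dpa. For TGFBR2 the 0 dpa difference was -1.56 (SE 0.24, edgeR adjusted p = 0.0273). That call was lost with DESeq2, DESeq2 size factors or a fit of these groups alone and without sp7- 0 dpa replicate 1, sp7+ 0 dpa replicate 1 or sp7+ 0 dpa replicate 2 (log2 values from -1.60 to -1.22, adjusted p from 0.0579 to 0.5). For gdf5 the levels were 0 and 0.199 CPM in sp7+ cells at 0 dpa, 0.0158 and 0.073 in sp7+ cells at 4 dpa, 1.54 and 1.62 in sp7- cells at 0 dpa and 0.0311 and 0.0913 in sp7- cells at 4 dpa, and summed counts at 0 dpa were 15.1-fold higher in sp7- cells (6.28 to 47.4), with -3.89 (SE 0.78, edgeR adjusted p = 0.00722). For gdf3 both sp7+ libraries at 0 dpa held 0 counts and the others from 10 to 29, at 0 and 0 CPM in sp7+ cells at 0 dpa and 0.3 and 0.243 at 4 dpa. sp7- cells held 0.566 and 0.7 at 0 dpa and 0.326 and 0.219 at 4 dpa. Against a floor of 3 counts in each library at 0, gdf3 was at least 5.01-fold higher in sp7- than in sp7+ cells at 0 dpa.

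At 4 dpa the activin subunit gene inhbb differed most among the higher members. It stood at 9.23 and 14 CPM in sp7+ cells at 0 dpa and 45.1 and 52.4 at 4 dpa. sp7- cells held 9.91 and 10.6 at 0 dpa and 5.19 and 5.31 at 4 dpa. The 0 dpa groups overlapped, 0.18 (SE 0.24, edgeR adjusted p = 1), and at 4 dpa the difference was 3.21 (SE 0.25, edgeR adjusted p = 1.7e-05). The ligand gene bmp7a had 0 counts in all 4 libraries at 0 dpa, and stood at 0 and 0 CPM in sp7+ cells at 0 dpa and 1.5 and 1.92 at 4 dpa. sp7- cells held 0 and 0 at 0 dpa and 0.264 and 0.237 at 4 dpa. At 4 dpa its counts were 95 and 79 in sp7+ cells and 17 and 13 in sp7- cells, a difference of 2.75 (SE 0.43, edgeR adjusted p = 0.00766). This call was lost with DESeq2 and without sp7- 4 dpa replicate 1, sp7- 4 dpa replicate 2 or sp7+ 4 dpa replicate 2 (log2 values from 2.64 to 2.88, adjusted p from 0.0502 to 0.146).

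The difference between the populations in their change from 0 to 4 dpa was fitted too, and 7.91% of all genes were called (4.66% higher and 3.25% lower). It is built from the changes on which the study chose 21 of the members, so for those it is a description with no test. The other 11, from the ATAC-seq lists alone, were left out of the RNA lists on the same changes or by missing rows. They are thus not an unselected list either. Among these 11, 2 were called, tgfbr2 and gdf3. For tgfbr2 the signed difference, sp7+ change minus sp7- change, was 1.16 (SE 0.30, edgeR adjusted p = 0.0377), and it was lost with DESeq2 size factors and without sp7- 0 dpa replicate 1, sp7- 0 dpa replicate 2, sp7- 4 dpa replicate 1, sp7- 4 dpa replicate 2, sp7+ 0 dpa replicate 1 or sp7+ 4 dpa replicate 1 (log2 values from 1.01 to 1.31, adjusted p from 0.0513 to 0.181). For gdf3 the fitted value rests on the libraries at 0, with an edgeR adjusted p of 0.0159, and 0.0542 and 0.07 without sp7- 4 dpa replicate 1 or 2. As a description, the signed difference was 3.04 (SE 0.34) for inhbb, 2.45 (SE 0.52) for tgfbi, 1.59 (SE 0.41) for inhbab and -4.04 (SE 0.54) for nog3, the other 4 members past the threshold. The inhbb libraries were higher at 4 than at 0 dpa in sp7+ cells and lower in sp7- cells, and those of nog3 the reverse. Since sp7+ and sp7- cells of a replicate were sorted from the same fins, the fit was also made with the replicate as a block within each day, and it put 11 members past the threshold in place of 6. Among those added the block gave 1.11 for bmp1a, -1.72 for bmp5, -1.43 for bmp8a and -2.04 for bmper, again as a description. The same block added bmp1a to the members lower in sp7+ cells at 0 dpa (-1.69, edgeR adjusted p = 0.0153). Without sp7+ 0 dpa replicate 2, 12 members passed the threshold for the difference in change, and without sp7- 4 dpa replicate 1 or replicate 2 there were 2.

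**Figure D4:**
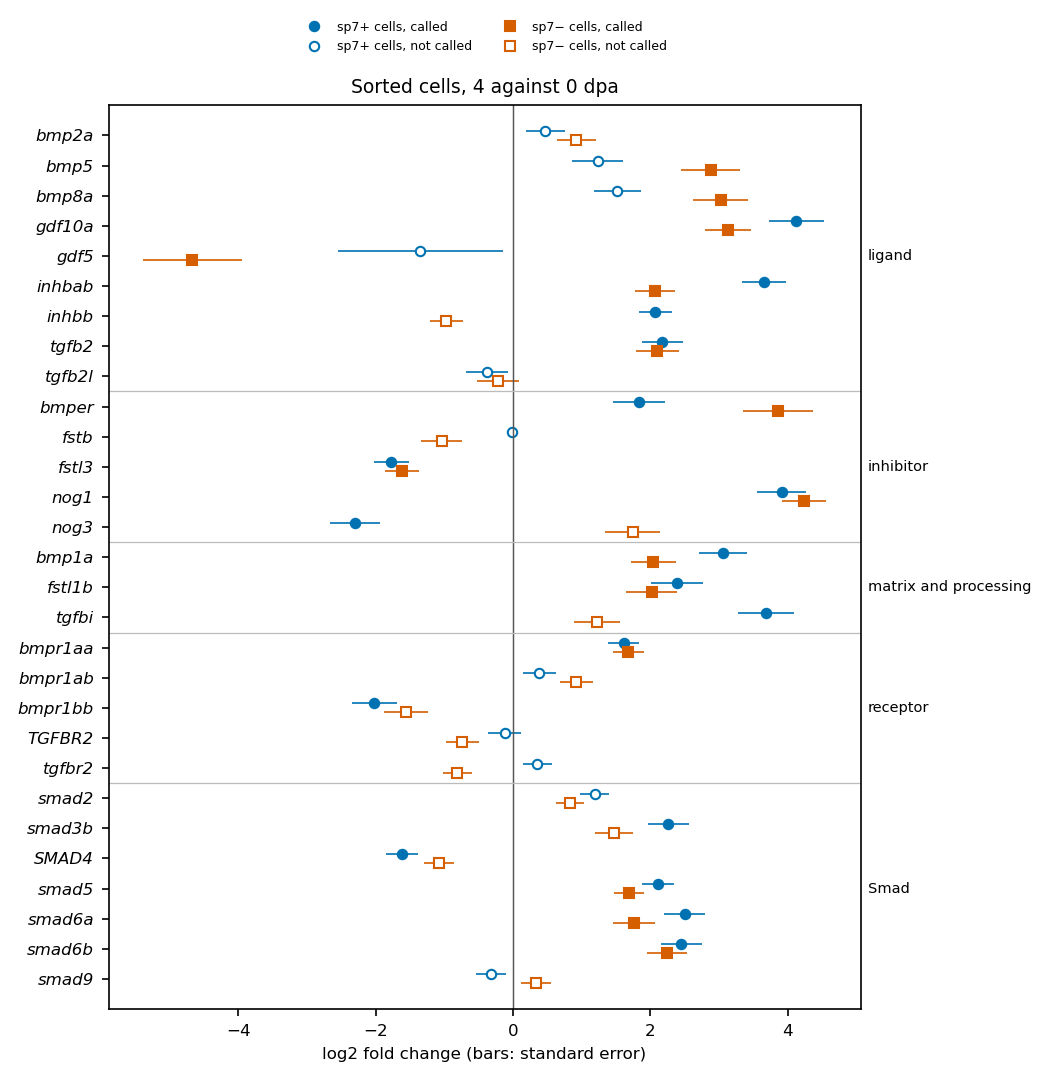
Log2 fold change from 0 to 4 dpa in sp7+ (circles) and sp7- cells (squares) for 29 members, by role, with standard errors where one could be had (2 libraries a group) and filled symbols for genes past the edgeR threshold, which is a description for members the study chose on this contrast. bmp7a and gdf3 are not drawn because a group was at 0, and inhbb and nog3 have the 2 populations on opposite sides of 0.

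Over time within the sorted cells, 20 members passed the threshold in sp7+ cells, 16 higher and 4 lower, with 27.4% of all genes called (14.4% higher and 13.1% lower), and 16 in sp7- cells, 14 higher and 2 lower, with 17.1% called (8.85% higher and 8.26% lower). Of these, 18 of the 20 belonged to the 21 that the study had listed for such a change, and nothing is read from those counts. The other 11 members, from the ATAC-seq lists alone, were set apart by not standing in the copies of the lists for this same change. Few calls among them, and losses with DESeq2, which the study used, were thus partly fixed by the split. Their p-values are not those of an unselected list. Of these 11, 2 passed in sp7+ cells, bmpr1aa and gdf3, and bmpr1aa passed in sp7- cells. The receptor gene bmpr1aa stood at 5.06 and 6.42 CPM in sp7+ cells at 0 dpa and 18.5 and 16.5 at 4 dpa. sp7- cells held 4.84 and 6.16 at 0 dpa and 18.4 and 16.9 at 4 dpa. It rose by 1.61 (SE 0.23, edgeR adjusted p = 0.0136) in sp7+ cells and by 1.68 (SE 0.23, edgeR adjusted p = 0.0115) in sp7- cells, while in wildtype fins its 4 dpa difference was 0.13. The sp7+ call was lost with DESeq2 and without sp7+ 0 dpa replicate 1 or sp7+ 4 dpa replicate 1 (log2 values from 1.45 to 1.53, adjusted p from 0.0544 to 0.298), and the sp7- call with DESeq2 and without sp7- 0 dpa replicate 1 or sp7- 4 dpa replicate 1 (log2 values from 1.52 to 1.63, adjusted p from 0.0846 to 0.13). For gdf3 the sp7+ cells held at least 2.15-fold more at 4 dpa than the floor at 0 dpa, and DESeq2 did not call it (adjusted p = 0.0847).

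As a description, bmp1a stood at 16.7 and 39.3 CPM in sp7+ cells at 0 dpa and 203 and 262 at 4 dpa. sp7- cells held 88.4 and 78.5 at 0 dpa and 330 and 358 at 4 dpa. Its fitted change was 3.05 (SE 0.35) in sp7+ and 2.04 (SE 0.33) in sp7- cells, and all 4 libraries at 4 dpa lay above all 4 at 0 dpa. The activin subunit inhbab stood at 2 and 2.47 CPM in sp7+ cells at 0 dpa and 20.8 and 35.4 at 4 dpa. sp7- cells held 4.84 and 3.77 at 0 dpa and 19.5 and 16.3 at 4 dpa. The inhbab fit gave 3.65 (SE 0.32) in sp7+ and 2.06 (SE 0.29) in sp7- cells. The ligand gdf10a stood at 0.266 and 0.877 CPM in sp7+ cells at 0 dpa and 10 and 10.4 at 4 dpa. sp7- cells held 1.29 and 2.08 at 0 dpa and 15 and 14.9 at 4 dpa. The gdf10a fit gave 4.12 (SE 0.40) in sp7+ and 3.13 (SE 0.34) in sp7- cells. These 3 had both populations higher at 4 dpa, and in wildtype fins at 4 dpa bmp1a and inhbab also passed the test against 0 dpa.

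The ligand tgfb2 stood at 1.73 and 2.39 CPM in sp7+ cells at 0 dpa and 11.4 and 7.15 at 4 dpa. sp7- cells held 1.13 and 1.35 at 0 dpa and 5.67 and 5.04 at 4 dpa. The tgfb2 fit gave 2.17 (SE 0.30) in sp7+ and 2.10 (SE 0.31) in sp7- cells. The glycoprotein gene fstl1b stood at 16.2 and 42.5 CPM in sp7+ cells at 0 dpa and 152 and 155 at 4 dpa. sp7- cells held 24.8 and 39.3 at 0 dpa and 130 and 130 at 4 dpa. The fstl1b fit gave 2.39 (SE 0.38) in sp7+ and 2.02 (SE 0.37) in sp7- cells. Both were higher in each library at 4 dpa than in any at 0 dpa. For bmp7a the levels at 4 dpa were at least 13.5-fold above the floor of 3 counts at 0 dpa in sp7+ cells and at least 3.01-fold in sp7- cells. The inhibitor fstl3 was lower at 4 dpa, at 48.7 and 73.8 CPM in sp7+ cells at 0 dpa and 20.6 and 15.3 at 4 dpa. sp7- cells held 73.6 and 75.9 at 0 dpa and 26.1 and 22.6 at 4 dpa. The fstl3 fit gave -1.77 (SE 0.25) in sp7+ and -1.62 (SE 0.25) in sp7- cells.

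The inhibitory Smads, low at 1 dpa in fins, were high at 4 dpa in sorted cells. The levels of smad6a were 3.33 and 2.19 CPM in sp7+ cells at 0 dpa and 16.3 and 14.8 at 4 dpa. sp7- cells held 2.96 and 1.74 at 0 dpa and 8.53 and 7.25 at 4 dpa. The smad6a fit gave 2.50 (SE 0.30) in sp7+ and 1.76 (SE 0.30) in sp7- cells. Those of smad6b were 5.99 and 6.62 CPM in sp7+ cells at 0 dpa and 28.2 and 40.7 at 4 dpa. sp7- cells held 9.5 and 5.24 at 0 dpa and 32.9 and 36.5 at 4 dpa. The smad6b fit gave 2.45 (SE 0.30) in sp7+ and 2.24 (SE 0.29) in sp7- cells. In wildtype fins at 4 dpa neither differed past the test from 0 dpa, with 0.27 (SE 0.32, edgeR adjusted p = 1) for smad6a and -0.11 (SE 0.39, edgeR adjusted p = 1) for smad6b. The mediators smad5, at 13.4 and 16.4 CPM in sp7+ cells at 0 dpa, 59.6 and 69.3 in sp7+ cells at 4 dpa, 26.8 and 20.5 in sp7- cells at 0 dpa and 73.9 and 78.5 in sp7- cells at 4 dpa, and smad3b, at 2.17 and 4.5 CPM in sp7+ cells at 0 dpa, 15.8 and 16.3 in sp7+ cells at 4 dpa, 7.74 and 8.04 in sp7- cells at 0 dpa and 20.8 and 23 in sp7- cells at 4 dpa, were also higher at 4 dpa in every library. Their fitted changes were 2.11 (SE 0.23) and 1.69 (SE 0.22) for smad5, and 2.26 (SE 0.30) and 1.47 (SE 0.28) for smad3b.

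Lower at 4 dpa were SMAD4, at 26.7 and 35 CPM in sp7+ cells at 0 dpa, 9.22 and 10.9 in sp7+ cells at 4 dpa, 19 and 20.5 in sp7- cells at 0 dpa and 8.68 and 10.1 in sp7- cells at 4 dpa, and bmpr1bb, at 15.4 and 10.9 CPM in sp7+ cells at 0 dpa and 2.75 and 3.8 at 4 dpa. sp7- cells held 23.4 and 12.5 at 0 dpa and 5.45 and 6.7 at 4 dpa. Their fitted changes were -1.62 (SE 0.23) and -1.08 (SE 0.22) for SMAD4, and -2.02 (SE 0.33) and -1.56 (SE 0.32) for bmpr1bb. The second TGF-beta receptor gene, tgfbr2, stood at 57.1 and 62.6 CPM in sp7+ cells at 0 dpa and 85.7 and 66.9 at 4 dpa. sp7- cells held 80.7 and 65.8 at 0 dpa and 43.9 and 39.6 at 4 dpa. The tgfbr2 fit gave 0.35 (SE 0.21, edgeR adjusted p = 1) in sp7+ and -0.81 (SE 0.21, edgeR adjusted p = 1) in sp7- cells. The ligand bmp2a stood at 11.4 and 22.2 CPM in sp7+ cells at 0 dpa and 23.6 and 22.9 at 4 dpa. sp7- cells held 12.8 and 12.7 at 0 dpa and 21.1 and 27.3 at 4 dpa. The bmp2a fit gave 0.47 (SE 0.28, edgeR adjusted p = 1) in sp7+ and 0.92 (SE 0.28, edgeR adjusted p = 0.749) in sp7- cells. Over the 8 sorted libraries fstb ranged from 8.32 to 27.3 CPM, bmpr1ab from 5.94 to 13.2, smad2 from 8.12 to 22.7, smad9 from 16.2 to 36.2 and tgfb2l from 9.75 to 24.2, and these are the 5 members that the main edgeR tests called in no comparison. Alternatives with all libraries called smad9 as given above, and fstb for the difference in change between populations (no filter, 0.0397), in wildtype at 1 dpa (1 CPM filter or groups alone, adjusted p of 0.0494 and 0.0195), at 4 dpa (groups alone, 0.0325) and in KO against wildtype at 4 dpa (DESeq2, no filter or groups alone, 0.0428, 0.0391 and 0.01).

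The third question was which members differed between KO and wildtype fins of the same day. The paper reported that fosl1a mutants regenerate more slowly at first. At 1 and 4 dpa the genotypes may thus not be at the same stage, and the part of stage in the values below was not tested. At 0 dpa no member differed between KO and wildtype fins by edgeR at an adjusted p of 0.05 or by DESeq2, with 0.352% of all genes called (0.308% higher and 0.0446% lower), and 4 members had an unadjusted p under 0.05 by each tool. Without KO 0 dpa replicate 2, 2 members were called by edgeR, bmp8a at -1.02 and smad6b at -1.52. That leaves the shallow KO 0 dpa replicate 1 as the group's single library, whose osteoblast marker sum was 753 CPM against 3061 in replicate 2.

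At 1 dpa the ligand bmp2a and the activin subunit inhbab were lower and tgfbi higher in KO fins, 3 members with 1.23% of all genes called (0.724% higher and 0.506% lower). The levels of bmp2a were 7.79 and 12.3 CPM at 0 dpa, 11.3 and 11.9 at 1 dpa and 11.9 and 13.5 at 4 dpa in wildtype fins. KO fins held 14.2 and 14.2, 3.74 and 4.08, and 15.2 and 12.3 at those times. Its 2 KO libraries at 1 dpa lay below the other 10, with -1.57 (SE 0.23, edgeR adjusted p = 0.0126). For inhbab the KO libraries held 8.9 and 9 CPM against 20.8 and 24.5 in wildtype, or -1.34 (SE 0.27, edgeR adjusted p = 0.0416). For tgfbi they held 51.2 and 44.6 against 22.1 and 21.2, or 1.14 (SE 0.20, edgeR adjusted p = 0.0226). None of the 3 calls was kept when any 1 of the 4 libraries at 1 dpa was left out, while the log2 values stayed between -1.70 and -1.52 for bmp2a, -1.55 and -1.28 for inhbab and 1.03 and 1.24 for tgfbi (adjusted p from 0.0585 to 0.277). The ligand gene tgfb2, at 3.74 and 2.77 CPM in KO and 6.77 and 7.41 in wildtype fins, gave -1.13 (SE 0.27, edgeR adjusted p = 0.0809) and was called lower in KO with DESeq2, no filter or the groups alone (log2 values from -1.17 to -1.14, adjusted p from 0.0126 to 0.0458). With no filter bmp7a was also called (-1.41, adjusted p = 0.0491). The mesenchyme sum was 2017 to 2526 CPM in KO and 2799 to 3168 in wildtype fins at 1 dpa, and that of 3 leukocyte markers 89.9 to 99.9 and 70.6 to 79.3, both without overlap, and their part in these differences was not tested. Within the mesenchyme sum msx1b was lower in KO (18 and 15.8 against 20.7 and 18.4 CPM) and msx3 higher (13.1 and 11.4 against 10.7 and 10.6). The change from 0 to 1 dpa differed between genotypes for bmp2a, -2.07 (SE 0.31, edgeR adjusted p = 0.0136), the 1 member called with 0.506% of all genes called (0.129% higher and 0.377% lower), and this was lost without wildtype 1 dpa replicate 2, KO 1 dpa replicate 1 or KO 1 dpa replicate 2 (log2 values from -2.14 to -2.05, adjusted p from 0.0641 to 0.0746). For inhbab that difference in change was -0.87 (SE 0.41, edgeR adjusted p = 0.537).

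**Figure D5:**
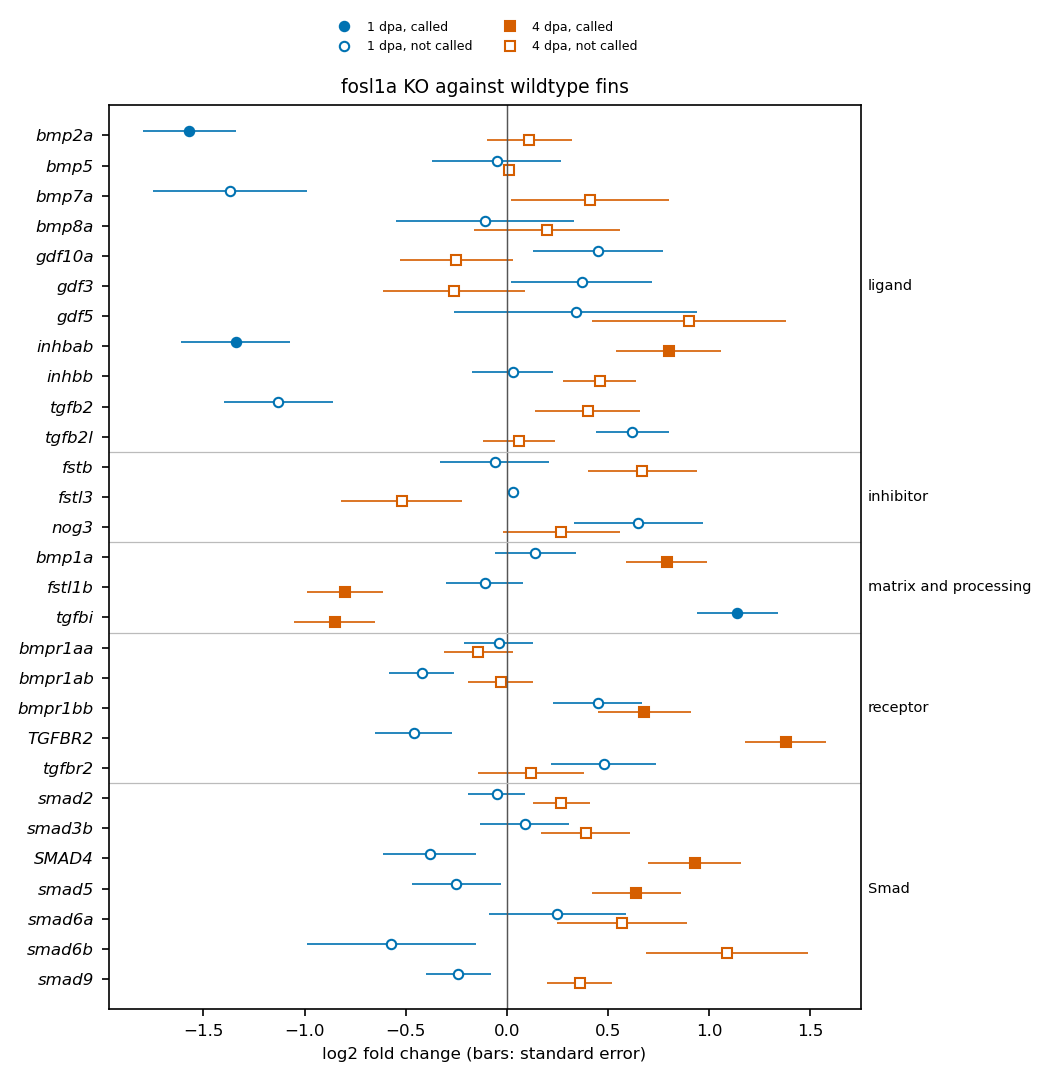
Log2 fold change of fosl1a KO against wildtype fins at 1 dpa (circles) and 4 dpa (squares) for 29 members, by role, with standard errors where one could be had (2 libraries a group) and filled symbols for genes past the edgeR test of no difference. nog1 and bmper are not drawn because they rest on 0 to 4 counts at 1 dpa. At 1 dpa the called genes are bmp2a, inhbab and tgfbi, and tgfbi and inhbab lie on opposite sides of 0 at 1 and 4 dpa.

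At 4 dpa TGFBR2, SMAD4, inhbab, bmp1a, bmpr1bb and smad5 were higher in KO fins, and tgfbi and fstl1b lower. These 8 members came with 29.4% of all genes called (12.7% higher and 16.8% lower), so their share was below that of all genes. TGFBR2 held 62.5 and 60.9 CPM in KO against 22.7 and 24.7 in wildtype fins, or 1.38 (SE 0.20, edgeR adjusted p = 0.00304), and it was the member that kept its call under every alternative tried. The values were 0.93 (SE 0.23, edgeR adjusted p = 0.0147) for SMAD4, 0.80 (SE 0.26, edgeR adjusted p = 0.0393) for inhbab and 0.79 (SE 0.20, edgeR adjusted p = 0.0143) for bmp1a. They were 0.68 (SE 0.23, edgeR adjusted p = 0.0486) for bmpr1bb, 0.64 (SE 0.22, edgeR adjusted p = 0.0463) for smad5, -0.85 (SE 0.20, edgeR adjusted p = 0.011) for tgfbi and -0.80 (SE 0.19, edgeR adjusted p = 0.0115) for fstl1b. The inhibitory Smad gene smad6b, at 82.1 and 83.7 CPM in KO and 42.5 and 35.6 in wildtype fins, gave 1.09 (SE 0.40, edgeR adjusted p = 0.0597). It was called higher in KO with DESeq2, DESeq2 size factors, no filter, a replicate block or the groups alone (log2 values from 1.07 to 1.15, adjusted p from 0.000727 to 0.0482). With DESeq2, DESeq2 size factors or the groups alone inhbb was called higher too (log2 values from 0.50 to 0.52, adjusted p from 0.0252 to 0.049). The groups alone also added bmper and smad6a (higher) and fstl3 (lower), and fstb and smad9 as given above. The summed epidermal markers were 53701 to 63650 CPM in KO and 38478 to 44964 in wildtype fins at 4 dpa, without overlap. The sums of blastema mesenchyme (3984 to 5583 and 3217 to 3970), leukocytes (110 to 139 and 78.8 to 80.1) and 2 vessel markers (16.2 to 16.7 and 12.1 to 13.7) also lay higher in KO without overlap, while the osteoblast sums overlapped (16438 to 22362 and 16561 to 23680), and their part in these differences was not tested. Within the mesenchyme sum msx3 was lower in KO (89 and 89.8 against 134 and 147 CPM), and msx1b overlapped (209 and 169 against 170 and 165).

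The 7 calls other than TGFBR2 did not outlast the loss of some single libraries. In all, 5 members were called without wildtype 4 dpa replicate 1, 4 without KO 4 dpa replicate 2, and 1 without wildtype 4 dpa replicate 2 or KO 4 dpa replicate 1. That of SMAD4 was lost without wildtype 4 dpa replicate 2 or KO 4 dpa replicate 1 (log2 values from 0.68 to 0.83, adjusted p from 0.113 to 0.142), and that of inhbab without wildtype 4 dpa replicate 2, KO 4 dpa replicate 1 or KO 4 dpa replicate 2 (log2 values from 0.54 to 0.91, adjusted p from 0.0713 to 0.27). Those of bmp1a and bmpr1bb were lost without wildtype 4 dpa replicate 1, wildtype 4 dpa replicate 2 or KO 4 dpa replicate 1 (log2 values from 0.53 to 0.85, adjusted p from 0.0704 to 0.145) and without wildtype 4 dpa replicate 1, wildtype 4 dpa replicate 2, KO 4 dpa replicate 1 or KO 4 dpa replicate 2 (log2 values from 0.64 to 0.79, adjusted p from 0.135 to 0.168). For smad5 the call was lost with the replicate number as a block and without wildtype 4 dpa replicate 1, wildtype 4 dpa replicate 2, KO 4 dpa replicate 1 or KO 4 dpa replicate 2 (log2 values from 0.54 to 0.76, adjusted p from 0.0502 to 0.233). For tgfbi and fstl1b it was lost without wildtype 4 dpa replicate 2 or KO 4 dpa replicate 1 (log2 values from -0.68 to -0.67, adjusted p from 0.111 to 0.112) and without wildtype 4 dpa replicate 2, KO 4 dpa replicate 1 or KO 4 dpa replicate 2 (log2 values from -0.82 to -0.69, adjusted p from 0.0538 to 0.102).

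The change from 0 to 4 dpa differed between genotypes for 7 members, or 21.9%, with 18.5% of all genes called (8.32% higher and 10.1% lower). The members' share was thus near that of all genes. It was higher in KO fins for TGFBR2, 1.69 (SE 0.28, edgeR adjusted p = 0.01), SMAD4, 1.27 (SE 0.34, edgeR adjusted p = 0.0285), inhbab, 1.27 (SE 0.40, edgeR adjusted p = 0.048), bmpr1bb, 1.16 (SE 0.32, edgeR adjusted p = 0.0312), and bmp1a, 1.09 (SE 0.28, edgeR adjusted p = 0.0263). It was lower for tgfbi, -1.24 (SE 0.28, edgeR adjusted p = 0.0184), and fstl1b, -0.89 (SE 0.27, edgeR adjusted p = 0.0419). Beside these 7 main calls, DESeq2 called smad5, 0.88 (DESeq2 adjusted p = 0.0341), and smad6b, 1.59 (DESeq2 adjusted p = 0.0268). With no filter smad6b was called (1.57, edgeR adjusted p = 0.0193) and fstl1b was not (-0.87, edgeR adjusted p = 0.0635). Each of these 7 was lost without at least 1 library, and TGFBR2 was lost without wildtype 4 dpa replicate 2 or KO 4 dpa replicate 1 (log2 values from 1.68 to 1.76, adjusted p from 0.0513 to 0.0593). The tgfbi difference was lost without wildtype 0 dpa replicate 2, wildtype 4 dpa replicate 1, wildtype 4 dpa replicate 2 or KO 4 dpa replicate 1 (log2 values from -1.34 to -1.06, adjusted p from 0.05 to 0.0893). The number called was 0 without wildtype 4 dpa replicate 2 or KO 4 dpa replicate 1, 1 without wildtype 0 dpa replicate 2 or wildtype 4 dpa replicate 1, 4 without KO 0 dpa replicate 1 or KO 4 dpa replicate 2, and 13 without KO 0 dpa replicate 2.

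The rest of the pathway was taken from a list of 96 further symbols, of which 90 gene identifiers were found in the counts, 70 tested in fins and 72 in sorted cells. It shows pathway genes that are not among the members, and it adds intracellular regulators and target genes, which are not roles of the members. Membership was set by how a symbol begins, so a gene outside the members can still stand in the study's lists. The list of further symbols was also chosen with earlier results of these data known. The shares below are thus not those of an unselected list. In wildtype fins 6 rose and 12 fell from 0 to 1 dpa, 25.7% of the list against 15.3% of all genes (medians of -0.41 and -0.06). From 0 to 4 dpa 13 rose and 4 fell, 24.3% against 11.5%, and from 1 to 4 dpa 21 rose and 6 fell, 38.6% against 8.97%. Symbols are those of the naming table, which gives human-style names to many zebrafish identifiers.

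Of the 13 further ligands tested in fins, 1 rose and 4 fell at 1 dpa. INHBA (ENSDARG00000012671), a further activin beta A gene, rose by 4.59 (SE 0.35, edgeR adjusted p = 1.25e-05) and then changed by -2.78 (SE 0.32, edgeR adjusted p = 0.000736) from 1 to 4 dpa. The 4 that fell were mstnb, GDF10, BMP3 and TGFB3. The gene mstnb, which encodes a myostatin, fell the most, -6.00 (SE 0.55, edgeR adjusted p = 3.46e-05), followed by GDF10, -4.16 (SE 0.37, edgeR adjusted p = 4.82e-05), BMP3, -3.99 (SE 0.26, edgeR adjusted p = 6.51e-06), and TGFB3, -2.06 (SE 0.27, edgeR adjusted p = 0.00301). BMP3 stayed lower at 4 dpa than at 0 dpa, -2.03 (SE 0.24, edgeR adjusted p = 0.00247), whereas GDF10 was higher, 2.04 (SE 0.26, edgeR adjusted p = 0.00404). Of the 16 receptors and co-receptors 1 rose, TGFBR1 (ENSDARG00000017494), 1.60 (SE 0.27, edgeR adjusted p = 0.0384), and 1 fell, the activin receptor gene ACVR2A, -1.61 (SE 0.17, edgeR adjusted p = 0.00522).

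Of the 8 intracellular regulators 3 rose at 1 dpa and none fell, namely SKIL, 2.88 (SE 0.32, edgeR adjusted p = 0.000373), skilb, 1.84 (SE 0.21, edgeR adjusted p = 0.00236), and PMEPA1, 3.46 (SE 0.36, edgeR adjusted p = 0.000164), all of which encode negative regulators of TGF-beta signalling. The same 3 genes were lower at 4 than at 1 dpa, from -2.81 (SE 0.35, edgeR adjusted p = 0.00118) for PMEPA1 to -2.30 (SE 0.31, edgeR adjusted p = 0.00327) for SKIL. Of the 16 inhibitors and processing genes tested 4 fell and none rose, among them SOSTDC1 (ENSDARG00000068892), -3.56 (SE 0.74, edgeR adjusted p = 0.0137), chrdl2, -1.84 (SE 0.23, edgeR adjusted p = 0.00421), and sost, -1.70 (SE 0.27, edgeR adjusted p = 0.0212).

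Of the 13 target genes, 5 rose from 0 to 4 dpa and none fell, and all 5 were msx genes, transcription factors that BMP signalling induces. They ran from 1.95 (SE 0.18, edgeR adjusted p = 0.000806) for msx2b to 4.16 (SE 0.32, edgeR adjusted p = 4.04e-05) for msx1a. At 1 dpa msx2a and msx3 had fallen, by -2.56 (SE 0.28, edgeR adjusted p = 0.000528) and -1.73 (SE 0.16, edgeR adjusted p = 0.00107). The 2 identifiers named id1 had near-equal values and are read as 1 observation, since the counting gave a read pair to every gene it overlapped. Both were 1.78 higher at 4 than at 1 dpa, with edgeR adjusted p of 0.00444 and 0.00419. The genes bambia and bambib, which encode a decoy receptor, rose from 0 to 4 dpa by 1.72 (SE 0.21, edgeR adjusted p = 0.00827) and 2.14 (SE 0.23, edgeR adjusted p = 0.00111).

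Between populations, BMP2 (ENSDARG00000041430) and BMP3 were higher in sp7+ cells on both days. BMP2 differed by 4.92 (SE 0.31, edgeR adjusted p = 7.42e-07) at 0 dpa and 3.77 (SE 0.28, edgeR adjusted p = 7.67e-06) at 4 dpa, and BMP3 by 3.02 (SE 0.32, edgeR adjusted p = 0.000121) and 4.53 (SE 0.34, edgeR adjusted p = 6.82e-06). TGFB3 was lower in sp7+ cells on both days, by -2.33 (SE 0.26, edgeR adjusted p = 0.000402) and -1.87 (SE 0.26, edgeR adjusted p = 0.00843). In all, 4 were higher and 5 lower at 0 dpa, 12.5% of the list against 18.0% of all genes, and 3 higher and 2 lower at 4 dpa, 6.94% against 9.02%. Between genotypes, 2 were called at 1 dpa, chrdl2, 1.47 (SE 0.23, edgeR adjusted p = 0.0172), and BMP3, 1.37 (SE 0.26, edgeR adjusted p = 0.0334), both higher in KO fins, 2.86% of the list against 1.23% of all genes. At 4 dpa 14 were higher and 10 lower, 34.3% against 29.4%. Of the 8 intracellular regulators 6 were higher and none lower, with a median of 0.83. Of 16 receptors and co-receptors 6 were higher and none lower, with TGFBR1 (ENSDARG00000042259) at 1.64 (SE 0.34, edgeR adjusted p = 0.00673). Of the 13 targets 5 were lower and none higher, among them id2b, -1.55 (SE 0.22, edgeR adjusted p = 0.00295), and msx3, -0.65 (SE 0.15, edgeR adjusted p = 0.0104).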

How the data were processed

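Gene counts were deposited by the authors as whole numbers for 20 libraries, 8 of sorted cells and 12 of unsorted fins. Per the labels and the study's methods, reads were mapped uniquely to GRCz10 with STAR 2.5.2a and counted over exons without regard to strand with featureCounts 1.5.0, a pair that overlapped several genes being counted for each. All count columns were used. The authors' lists of differentially expressed genes and differential ATAC-seq regions served to pick members by symbol, and no value was taken from them. The members and the pathway list were chosen with earlier results of these data known.

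Each experiment was fitted on its own, over all its libraries, with edgeR 4.0.16 in R 4.3.3 (TMM scaling, filterByExpr, quasi-likelihood), and tested against a 2-fold change between days or populations and against no difference between genotypes or in changes. P-values were adjusted by Benjamini-Hochberg over the 18641 genes tested in sorted cells and 20157 in fins, with a threshold of 0.05. CPM used TMM library sizes. Standard errors were recovered from the F statistic. The procedure was tested on simulated counts. For ratios at low counts, 95% exact binomial intervals were used, and a floor of 3 counts a library where a group was at 0.

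Members called in 2 or more comparisons or in any genotype comparison, and bmp1a, are given in every library, and the rest by range, except 1 inhibitor, whose values are not reported here. Groups of 2 libraries and labels that do not name separate animals mean that p-values measure the spread between these samples, which may be technical. In sorted cells the methods state that sp7+ and sp7- cells of a replicate came from the same fins. For that reason the replicate block within each time point is given beside the population results it changed. Their deviations correlated within a day at r of 0.262 at 0 dpa and 0.13 at 4 dpa. Groups of different days, which share no fins, gave r from -0.225 to -0.00673, so these correlations alone cannot show the pairing. Alternatives were DESeq2 1.42.0, its size factors in edgeR, no filter, a filter of 1 CPM in 2 libraries, a replicate block, a fit of the compared groups alone and leaving out each library. Sequences of these genes were not analysed here.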

Additional observations from a re-analysis of the deposited data

Results flagged for a closer look

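Of the 11 members not in the copies of the study's RNA lists, a split made on this same change, 2 were called for the population difference in change. This was the edgeR test of the difference between sp7+ and sp7- cells in their change from 0 to 4 dpa, with 7.91% of all genes called. Neither call was kept under every alternative. The log2 difference, sp7+ change minus sp7- change, was 1.16 for tgfbr2 (adjusted p = 0.0377) and 7.78 for gdf3 (0.0159). The gdf3 value depends on the prior count, because both sp7+ libraries at 0 dpa held 0 counts, and is not a size of effect.

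Between genotypes, the change from 0 to 1 dpa differed for bmp2a, at -2.07 in KO minus wildtype (edgeR adjusted p = 0.0136), with 0.506% of all genes called. The change from 0 to 4 dpa differed, KO minus wildtype, by 1.27 for SMAD4 (adjusted p = 0.0285), 1.27 for inhbab (0.048), -0.89 for fstl1b (0.0419), 1.09 for bmp1a (0.0263), -1.24 for tgfbi (0.0184), 1.69 for TGFBR2 (0.01) and 1.16 for bmpr1bb (0.0312). For that change 21.9% of the members and 18.5% of all genes were called, so the members' share was near that of all genes. No member's call for either genotype difference in change was kept under every alternative. The gene inhbab also gave opposite signs between the genotypes by day, lower in KO at 1 dpa (-1.34) and higher at 4 dpa (0.80).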

How the results depend on the processing

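Of 108 values past the threshold over the 32 members and 13 comparisons, those that the choice of members used included, 62 were kept under every alternative, 87 under every alternative that used all libraries and 63 under every left-out library. The numbers of members called that moved by more than 1.5 times were those between genotypes at 1 dpa (3, and 5 with no filter on low counts), between genotypes at 4 dpa (8, and 15 with the compared groups fitted alone) and for the difference in change between sp7+ and sp7- cells (6, and 12 with no filter or 11 with the replicate block within each time point). The members called without 1 library ranged from 0 to 2 for KO against wildtype at 0 dpa, 0 to 0 at 1 dpa and 1 to 5 at 4 dpa, from 0 to 1 and from 0 to 13 for the genotype difference in change to 1 and to 4 dpa, from 2 to 12 for the population difference in change, and from 8 to 11 for wildtype 4 against 1 dpa. They ranged from 10 to 14 for wildtype 1 against 0 dpa, 5 to 7 for 4 against 0 dpa, 16 to 19 in sp7+ and 11 to 14 in sp7- cells over time, and 8 to 11 and 4 to 5 for sp7+ against sp7- cells at 0 and 4 dpa. With 1 library left in a group, its spread was assumed to be that of the other groups. The value of bmp8a in KO against wildtype at 0 dpa was 0.07, and without 1 library it ranged from -1.02 (without KO 0 dpa replicate 2) to 0.66 (without KO 0 dpa replicate 1). In fins the numbers are shared between groups without a stated pairing (correlations of deviations from -0.152 to 0.27). A replicate block there called 14 members for wildtype 1 against 0 dpa in place of 12 (bmp8a and bmpr1bb added), dropped smad5 (0.64, edgeR adjusted p = 0.0502) and added smad6b (1.07, 0.0482) in KO against wildtype at 4 dpa. Counts under 10 at 1 dpa limit what can be said of nog1 and bmper to their intervals. The wildtype falls to 1 dpa of gdf5 (8 and 9 counts), GDF10 (9 and 7) and SOSTDC1 (4 and 2) also rest on counts under 10. Their sizes are uncertain for that reason.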
